A study of Homo sapiens with 10 samples.

Results

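The retinoic acid receptors and retinoid-binding genes were followed in a human chronic myeloid leukaemia (CML) line and in its cyclophosphamide-resistant subline. CML is a leukaemia driven by the fusion kinase BCR-ABL, and cyclophosphamide is an alkylating drug that acts through aldehyde intermediates. The members were all probe sets that the platform annotation assigned to 1 of 9 listed genes: the nuclear receptors RARA, RARB, RARG, RXRA and RXRB, the cytosolic carriers CRABP1 and CRABP2, the reductase DHRS3 and the secreted protein RARRES2. This gave 15 of the 12558 probe sets tested, for 8 of the 9 genes, and no probe set was assigned to CRABP1. Total RNA of 5 resistant and 5 sensitive samples was hybridised to 1 Affymetrix oligonucleotide array each. Both groups were grown in tissue culture medium, and the labels name neither the line nor a drug exposure before harvest. The resistant group is 1 subline, so differences tied to resistance and other differences of that subline cannot be told apart. Whether the replicates were grown as separate cultures is not stated, so each p-value is set against a spread that may be purely technical.

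Retinoids are vitamin A derivatives. Retinol is oxidised to retinaldehyde and then to retinoic acid, which binds the receptors of the RAR family. A RAR acts on DNA as a heterodimer with a receptor of the RXR family, represses its targets through corepressors when no ligand is bound, and activates them when retinoic acid binds. In myeloid cells the pathway is known for driving granulocytic maturation, and a fusion of RARA blocks that maturation in acute promyelocytic leukaemia.

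The values are MAS5 signals, a linear intensity for each probe set and array. A probe set was taken as detected on an array where its signal lay above the 95th percentile of 32 control probe sets without a human target, a limit between 319.7 and 739.8. By this limit 51.0% to 61.3% of all probe sets were detected per array, with means of 54.9% ± 4.35 in resistant and 55.1% ± 2.60 in sensitive arrays (SD, n = 5 each). Of 8 measured markers of a myeloid leukaemia line, 6 were detected on at least 3 resistant arrays and 7 on at least 3 sensitive arrays. MPO, the myeloperoxidase of granulocyte precursors, was detected on 2 resistant and 1 sensitive arrays, and SPI1, a myeloid transcription factor, on 0 resistant and 5 sensitive arrays. The summed signals of T cell, B cell and epithelial markers overlapped between the groups. Those of 4 fibroblast markers did not, at 432 to 1027 in resistant and 1104 to 2850 in sensitive arrays. This came from LUM, a matrix proteoglycan (log2 difference -2.07), while COL1A2 and COL3A1 were detected on no array and COL1A1 on 0 resistant and 1 sensitive arrays. The part of LUM-expressing cells in the results below was not tested. In RNA from whole cultures, fewer cells of a type and less RNA per cell cannot be told apart.

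Among the members, RXRA was lower and DHRS3 higher in resistant cells, and no other member was called. RXRA, the RXR partner that RARs and several other nuclear receptors use, fell in both of its probe sets, with log2 differences of -2.31 and -1.27. The brighter one fell to 0.201 times the sensitive level on that scale, and the dimmer one, detected on 1 of 5 resistant arrays, is given no fold. DHRS3, a reductase that returns retinaldehyde to retinol and is itself known to be induced by retinoic acid, was at least 3.7-fold higher. In limma, 3 of the 15 member probe sets passed a Benjamini-Hochberg adjusted p of 0.05, 1 higher and 2 lower in resistant arrays. Of all probe sets tested, 7.41% passed in either direction, 4.42% higher and 2.99% lower. Resistant and sensitive arrays were fully separated in these 3 and in 8.5% of all probe sets. The 2 lower probe sets belong to 1 gene and are not independent of each other. The members were chosen with earlier results of these data known, so these counts are descriptions. The median difference of the 15 probe sets was -0.14, against 0.03 over all probe sets. Of the 15, 7 were detected on at least 3 arrays of either group, and 1, a probe set of CRABP2, was detected on none of the 10 arrays.

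**Figure D1:**
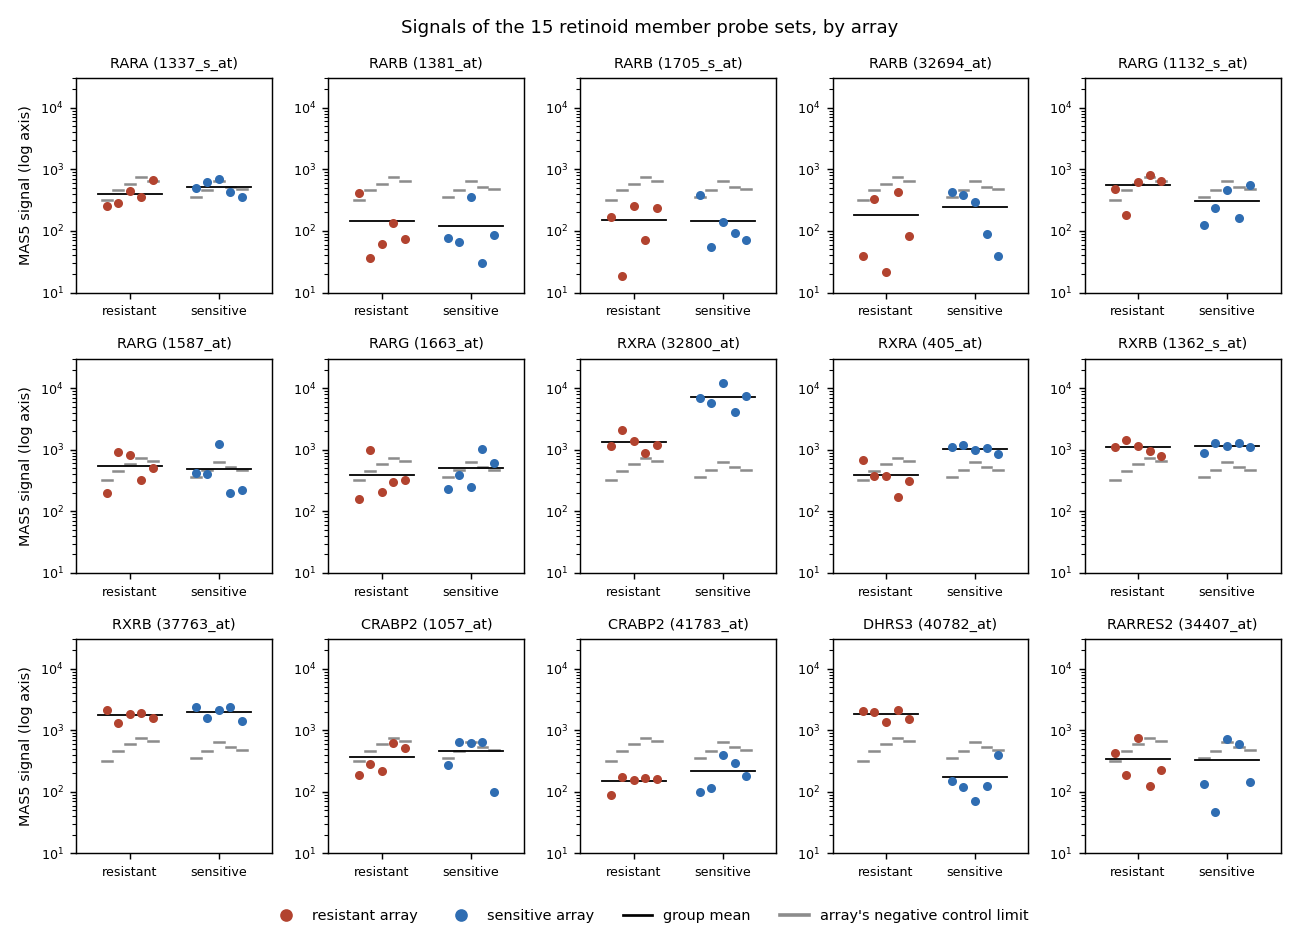
Signal of each of the 15 member probe sets on 5 resistant (left) and 5 sensitive (right) arrays, with the probe set identifier of the files in brackets. Points are arrays in order of replicate number, black lines are group means, grey dashes are each array's negative control limit, and the vertical axis is logarithmic. The groups are apart in both RXRA panels and in the DHRS3 panel, and overlap in the other 12.

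The brighter RXRA probe set read 1134, 2102, 1367, 889.4 and 1202 on the resistant arrays, against 7053, 5742, 12151, 4154 and 7374 on the sensitive arrays. All 10 arrays lay above the limit, and the highest resistant array stayed below the lowest sensitive one. Its group means were 1339 ± 459.6 in resistant and 7295 ± 2997 in sensitive arrays (SD, n = 5 each), a log2 difference of -2.31 (SE 0.29, 95% interval -2.95 to -1.67, adjusted p = 0.000322, limma).

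The second RXRA probe set read 688.4, 382.6, 378.6, 169.7 and 311.0 on the resistant arrays, against 1102, 1200, 986.0, 1051 and 845.6 on the sensitive arrays. It too separated the groups. All 5 sensitive arrays were above the limit, and of the resistant arrays only replicate 1 was. The means were 386.1 ± 189.7 in resistant and 1037 ± 132.6 in sensitive arrays (SD, n = 5 each), with a log2 difference of -1.27 (SE 0.25, 95% interval -1.82 to -0.73, adjusted p = 0.00753, limma). Signals of dim probe sets are compressed by the pseudocount, and with most resistant arrays below the limit the 2 probe sets cannot be compared in the size of their decrease. The parts of the transcript that they cover are not known here. Without any 1 of the 10 arrays the adjusted p stayed at or below 0.00151 for the brighter probe set and 0.0235 for the dimmer one.

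DHRS3 was measured by 1 probe set. Its signals were 2093, 1975, 1380, 2147 and 1514 on the resistant arrays, against 148.3, 120.8, 71.5, 125.6 and 401.0 on the sensitive arrays. The resistant arrays were all above the limit and the sensitive arrays all below it, with sensitive replicate 5 the highest of its group. The means were 1822 ± 350.9 in resistant and 173.4 ± 130.3 in sensitive arrays (SD, n = 5 each), with a log2 difference of 2.82 (SE 0.27, 95% interval 2.24 to 3.41, adjusted p = 3.35e-05, limma). Because the sensitive signal has only an upper bound, the rise is given as at least 3.7-fold, the resistant mean log2 signal against the limits of the sensitive arrays. The adjusted p did not exceed 0.000195 with any 1 array left out.

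RXRB, the second RXR gene measured among the members, was detected on all 10 arrays in both of its probe sets. The brighter one read 2139, 1330, 1849, 1941 and 1597 on the resistant arrays, against 2360, 1588, 2129, 2390 and 1410 on the sensitive arrays. The ranges overlapped over most of their length. Its log2 difference was -0.14 (95% interval -0.59 to 0.32, adjusted p = 0.819, limma), and that of the dimmer one was -0.08 (95% interval -0.50 to 0.33, adjusted p = 0.893). These intervals leave room for a decrease of 0.59 on the log2 scale, but not for one of the size seen in either RXRA probe set. The change of RXRA relative to RXRB was tested within arrays, a test added after the values were seen. In all 4 pairings of an RXRA with an RXRB probe set, the log2 ratio of RXRA to RXRB was lower on every resistant array than on any sensitive array. In the 2 pairings of the brighter RXRA probe set it was lower by 2.18 and 2.23 on average. The two-sided exact permutation p was 0.00794 for each of the 4 pairings, the smallest that 252 splits allow, and 0.00992 after adjustment over the 5 such tests made. The fifth of these set the 2 RXRA probe sets against each other and is not read, since the dimmer one was mostly below the limit in resistant arrays. For the same reason the sizes from its pairings with RXRB are not read. RXRA was picked after its probe sets were seen to separate the groups, so these p-values are descriptions and add no support.

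**Figure D2:**
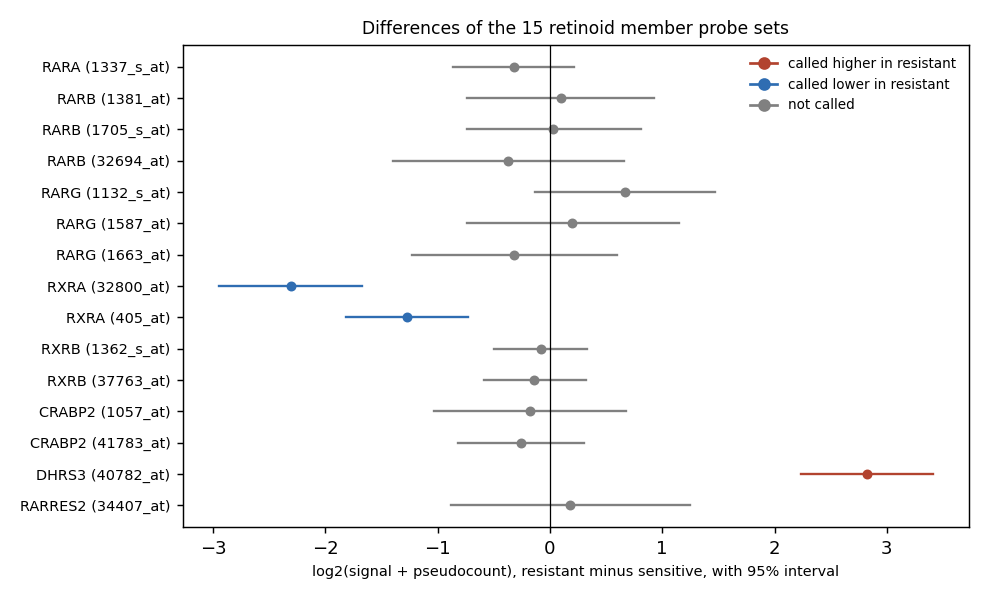
Resistant minus sensitive difference of log2(signal + pseudocount) for each member probe set (points) with its 95% interval from limma (lines). Red marks a probe set called higher in resistant arrays, blue one called lower and grey one not called. RXRA lies at -2.31 and -1.27, DHRS3 at 2.82, and the intervals of the other 12 probe sets include 0.

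The 3 RAR genes gave dim signals in both lines, and none of their 7 probe sets was called (limma), 0 of them at an unadjusted p under 0.05. RARA, the main RAR of myeloid cells, had 1 probe set. It read 250.0, 284.8, 451.4, 352.6 and 672.4 on the resistant arrays, against 493.6, 626.4, 696.7, 423.3 and 358.0 on the sensitive arrays. It was detected on 1 resistant and 3 sensitive arrays, and the groups overlapped (log2 difference -0.32, 95% interval -0.86 to 0.21, adjusted p = 0.573).

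RARB, a receptor gene that is itself a classic target of retinoic acid, had 3 probe sets. Each was detected on at most 1 array of a group. The brightest RARB probe set read 39.2, 324.3, 21.7, 424.8 and 83.2 on the resistant arrays, against 431.6, 388.9, 293.7, 90.6 and 39.2 on the sensitive arrays (log2 difference -0.37, adjusted p = 0.773, limma). The other 2 had log2 differences of 0.10 and 0.03. At these signals a difference in RARB was not detectable.

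RARG, a receptor known best from skin, also had 3 probe sets, and they did not point one way. The brightest RARG probe set read 195.7, 922.4, 812.4, 321.5 and 510.0 on the resistant arrays, against 416.9, 409.1, 1230, 198.6 and 226.5 on the sensitive arrays (log2 difference 0.20, adjusted p = 0.88, limma). High and low arrays occurred in both groups. A second RARG probe set, detected on 3 resistant arrays and 1 sensitive array, had a log2 difference of 0.67 (95% interval -0.13 to 1.47, adjusted p = 0.385), and the last had a log2 difference of -0.32 (adjusted p = 0.785).

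CRABP2, which carries retinoic acid from the cytosol to RARs in the nucleus, was near or below the detection limit. Its brighter probe set read 185.2, 288.3, 218.3, 618.8 and 515.2 on the resistant arrays, against 268.1, 649.3, 614.9, 637.5 and 98.9 on the sensitive arrays. It was detected on 0 resistant and 2 sensitive arrays (log2 difference -0.18, 95% interval -1.03 to 0.68, adjusted p = 0.887, limma). The other CRABP2 probe set ranged from 87.9 to 175.4 in resistant and from 99.2 to 396.4 in sensitive arrays, below the limit throughout.

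RARRES2, which encodes the secreted chemoattractant chemerin and takes its gene name from its induction by a retinoid in skin, read 432.9, 191.0, 743.3, 123.7 and 226.3 on the resistant arrays, against 133.4, 47.6, 710.0, 609.7 and 143.2 on the sensitive arrays. It was detected on 2 arrays of each group. Its log2 difference was 0.18, with a 95% interval of -0.88 to 1.25 that leaves its direction unsettled (adjusted p = 0.908, limma).

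Promoter sequences are shown for the 2 members that were called and for RARB, whose promoter holds the best known retinoic acid response element and which was added after the matches were seen. They are the 250 bases before a transcription start in RefSeq, build GRCh38.p14, 5′ to 3′ on the gene's own strand, and capitals mark half-sites. A half-site was AGGTCA, the consensus, or one of the common variants GGGTCA, as in other receptor elements, AGTTCA, found in RARB, and GGTTCA, found there too. Both strands were searched, and a pair was 2 half-sites in the same orientation with 1, 2 or 5 bases between them. Hits of different half-sites may overlap.
DHRS3, chr1:12618211-12618460, minus strand: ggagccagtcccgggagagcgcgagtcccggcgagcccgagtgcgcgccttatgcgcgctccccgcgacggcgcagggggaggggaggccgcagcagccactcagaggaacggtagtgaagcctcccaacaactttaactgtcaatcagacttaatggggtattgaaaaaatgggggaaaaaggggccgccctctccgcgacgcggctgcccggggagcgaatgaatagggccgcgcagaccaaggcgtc
RXRA, chr9:134326205-134326454, plus strand: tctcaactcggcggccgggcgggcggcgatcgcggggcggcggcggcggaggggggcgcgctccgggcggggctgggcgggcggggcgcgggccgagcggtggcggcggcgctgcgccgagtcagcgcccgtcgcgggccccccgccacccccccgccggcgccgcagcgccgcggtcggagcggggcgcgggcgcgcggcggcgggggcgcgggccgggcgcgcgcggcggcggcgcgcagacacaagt
RARB, chr3:25428013-25428262, plus strand: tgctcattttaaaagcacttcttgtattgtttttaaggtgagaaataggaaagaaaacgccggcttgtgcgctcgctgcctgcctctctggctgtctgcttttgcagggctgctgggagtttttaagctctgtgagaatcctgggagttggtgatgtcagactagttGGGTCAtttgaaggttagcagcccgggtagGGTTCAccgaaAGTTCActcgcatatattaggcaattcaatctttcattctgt
The RARB promoter holds 1 pair with 5 bases between its half-sites, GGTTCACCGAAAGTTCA, at positions -53 to -37 from the start. The DHRS3 and RXRA windows shown hold no half-site. RefSeq lists other starts for both genes, and 2 further DHRS3 windows and 1 further RXRA window hold 1 half-site each and no pair. Over all 18 promoters of the 9 listed genes, taken as 250 bases before to 50 after the start, 1 held a pair and 9 held at least 1 half-site. Of all 35116 RefSeq promoters of this length, 0.259% held a pair and 38.6% a half-site. The 1 pair among the members is that of RARB, whose own half-sites were among the variants searched for. Its match was thus given by the search, and the share of pairs is not compared. These are matches of letters, and nothing in the arrays measured binding.

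The rest of the pathway was read from a list of 68 other genes, of which 48 had a probe set of their own. Each gene was read from its brightest probe set by mean log2 signal. Of the 48, 5 were called higher and 4 lower in resistant arrays (18.8%), against 4.94% and 3.46% of all 8226 genes (8.4% in either direction). The median log2 difference was 0.07, against 0.03 over all genes. The list was drawn up with earlier results for ALDH1A1 and CEBPE known, so its count is a description. A further 20 genes were not measured, among them the retinol uptake receptor gene STRA6, and for 2 of these 20 the annotation gives shared probe sets that also name another gene.

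**Figure D3:**
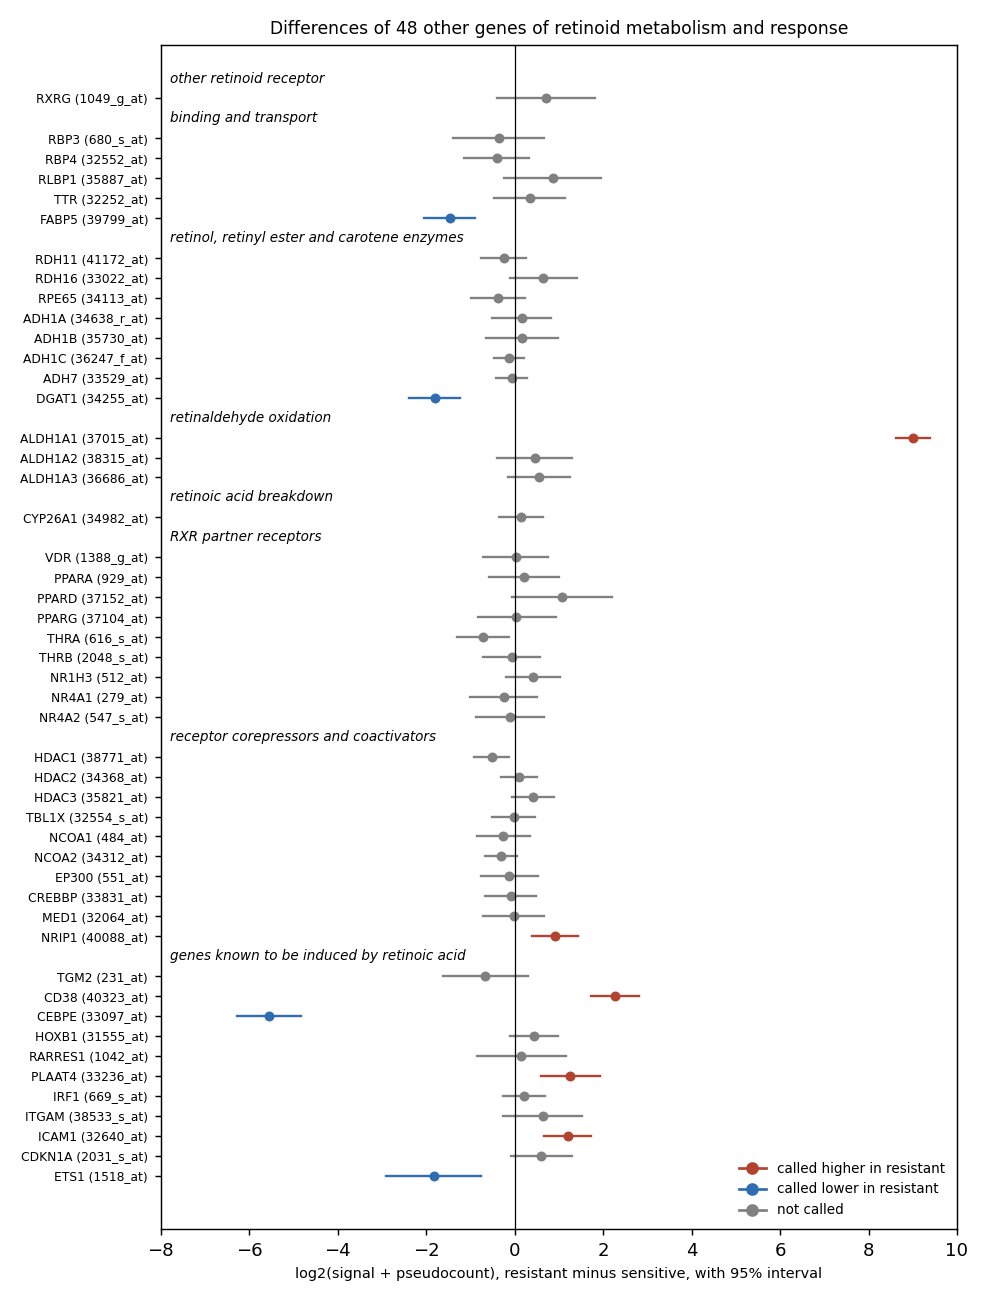
Resistant minus sensitive difference of log2(signal + pseudocount) with its 95% interval for the representative probe set of 48 further retinoid genes, grouped by role. Red marks genes called higher in resistant arrays, blue genes called lower and grey genes not called. ALDH1A1 lies at 9.01 and CEBPE at -5.56, and none of the 9 RXR partner receptors was called.

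The enzymes around retinaldehyde included the largest difference of the list. ALDH1A1, which oxidises retinaldehyde to retinoic acid as well as the aldehyde form of activated cyclophosphamide, read 64281, 67199, 64841, 86861 and 86583 on the resistant arrays, against 8.9, 19.9, 47.4, 23.9 and 39.7 on the sensitive arrays (at least 151-fold higher, adjusted p = 3.38e-11, limma). Among the enzymes that compete for retinaldehyde, RDH11, given below, was above the limit on every array in its brighter probe set. ALDH1A1 and DHRS3 were below the limit on every sensitive array and above it on every resistant array. The sister enzymes ALDH1A2 and ALDH1A3 were each detected on 1 resistant array and 0 sensitive arrays, and their log2 differences were 0.45 for ALDH1A2 (adjusted p = 0.629) and 0.55 for ALDH1A3 (adjusted p = 0.417). CYP26A1, which breaks down retinoic acid and is strongly induced by it in many cells, was detected on 1 resistant and 0 sensitive arrays (421.7 ± 148.7 in resistant and 365.6 ± 96.17 in sensitive arrays, SD, n = 5 each), with a log2 difference of 0.14 (adjusted p = 0.824).

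Among the enzymes of retinol and its esters, 1 of 8 genes was called. DGAT1, an acyltransferase that makes triglycerides and can also esterify retinol, read 3270, 1818, 1233, 2064 and 2267 on the resistant arrays, against 10147, 9263, 6201, 6747 and 5601 on the sensitive arrays. The groups did not overlap (log2 difference -1.81, SE 0.26, adjusted p = 0.001, limma). RDH11, a retinal reductase, was bright in both groups at 4664 ± 1479 in resistant and 5444 ± 952.4 in sensitive arrays (SD, n = 5 each; log2 difference -0.25, adjusted p = 0.654). Of the 8, 6 were detected on no array, RDH16 among them.

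Of 5 binding and transport genes, FABP5 was called. It encodes a fatty acid-binding protein that can carry retinoic acid to PPARD in place of the RARs, and it has near-identical pseudogenes, so its signal may not be its own alone. It read 1148, 949.4, 1495, 1356 and 807.2 on the resistant arrays, against 3577, 5084, 2448, 4134 and 2193 on the sensitive arrays, with no overlap (log2 difference -1.47, SE 0.26, adjusted p = 0.00373, limma). FABP5 and DGAT1 both lie on chromosome 8, where 68 of 188 genes detected on at least 3 arrays of a group were called lower (36.2%), against 3.95% of such genes elsewhere. The part of this chromosome-wide shift in the 2 differences was not tested. RXRA lies on chromosome 9 and DHRS3 on chromosome 1, and a shift of either chromosome was not tested. The log2 difference was -0.36 for RBP3 (adjusted p = 0.784) and 0.86 for RLBP1 (adjusted p = 0.429), both retinal binding proteins.

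None of the 9 measured RXR partner receptors was called by limma, and 1, the thyroid hormone receptor gene THRA, reached an unadjusted p under 0.05. Its brightest probe set was 544.9 ± 234.4 in resistant and 904.7 ± 117.9 in sensitive arrays (SD, n = 5 each; log2 difference -0.71, adjusted p = 0.173). The other THRA probe sets had log2 differences of -0.58 (adjusted p = 0.273) and -0.15 (adjusted p = 0.829). NR1H3, the oxysterol receptor LXR alpha, had a log2 difference of 0.41 (adjusted p = 0.512). RXRG, the RXR gene outside the members, was detected on 2 resistant and 0 sensitive arrays (log2 difference 0.70, adjusted p = 0.552).

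All 10 measured corepressors and coactivators were detected on at least 3 arrays of a group, and 1 was called. NRIP1, a ligand-dependent corepressor that retinoic acid is known to induce, read 6871, 7828, 11392, 6091 and 7662 on the resistant arrays, against 3722, 3451, 3213, 6648 and 4043 on the sensitive arrays. Sensitive replicate 4 lay above resistant replicate 4, so the groups overlapped (log2 difference 0.92, SE 0.24, adjusted p = 0.0374, limma). The call was lost without any 1 of 8 arrays, all but resistant and sensitive replicate 4, at adjusted p-values of up to 0.0977. The histone deacetylase gene HDAC1 had a log2 difference of -0.52 in its brighter probe set (10553 ± 1443 in resistant and 15191 ± 2301 in sensitive arrays, SD, n = 5 each; adjusted p = 0.121) and was called in its other probe set, at -0.86 with overlapping groups (adjusted p = 0.0283). That call was kept without resistant replicate 2 or 3 or sensitive replicate 4, and lost without any other array, at an adjusted p of up to 0.0706. MED1, a Mediator subunit that binds nuclear receptors, had a log2 difference of -0.02 (adjusted p = 0.989).

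Of 11 genes known to be induced by retinoic acid in some cell type, 3 were called higher and 2 lower, where 4.94% and 3.46% of all genes were. CD38, a surface enzyme that retinoic acid induces in myeloid cells, read 556.5, 808.5, 901.9, 819.0 and 703.6 on the resistant arrays, against 216.1, 30.5, 50.1, 42.2 and 36.8 on the sensitive arrays. All resistant and no sensitive arrays were above the limit, a rise of at least 1.54-fold (log2 difference 2.26, adjusted p = 9.3e-05, limma). ICAM1, an adhesion receptor, read 1187, 664.3, 498.1, 697.8 and 1029 on the resistant arrays, against 333.6, 337.5, 342.7, 192.7 and 205.1 on the sensitive arrays (at least 1.6-fold higher, log2 difference 1.20, adjusted p = 0.00844). Only 3 resistant arrays and 0 sensitive arrays were above the limit for ICAM1.

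PLAAT4, a phospholipid acyltransferase first named as a retinoid-responsive gene, read 537.0, 303.4, 303.0, 756.1 and 724.5 on the resistant arrays, against 74.7, 295.0, 115.6, 67.7 and 217.5 on the sensitive arrays. The lowest resistant array was barely above the highest sensitive one, and 3 resistant and 0 sensitive arrays were above the limit (log2 difference 1.25, adjusted p = 0.0255, limma). Against the limits of the sensitive arrays the bound is 1-fold, so no size of the rise can be given. The call was kept without any 1 of resistant replicates 2 and 3 and sensitive replicates 2 and 5, and lost without any other array, at an adjusted p of up to 0.07.

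The opposite direction was led by CEBPE, a factor that drives the later steps of granulocyte maturation and a direct target of retinoic acid receptors in promyelocytes. It read 88.1, 58.1, 34.8, 444.8 and 186.2 on the resistant arrays, against 10994, 12244, 14359, 8887 and 11401 on the sensitive arrays (at least 21.6-fold lower, adjusted p = 7.6e-07, limma). ETS1, a transcription factor of lymphoid and other cells, read 59.7, 112.0, 102.3, 146.2 and 99.0 on the resistant arrays, against 1071, 1097, 1924, 144.5 and 243.6 on the sensitive arrays. Sensitive replicates 4 and 5 were as low as, or close to, the resistant arrays (log2 difference -1.83, adjusted p = 0.0446). With 0 resistant and 3 sensitive arrays above the limit, the decrease is bounded only as at least 1.14-fold. The call was kept only without sensitive replicate 4 or 5 and reached an adjusted p of 0.113 without another array, and the other ETS1 probe set was not called (log2 difference -0.92, adjusted p = 0.318). The interferon-induced factor IRF1 was detected on all arrays (log2 difference 0.21, adjusted p = 0.702), and the transglutaminase TGM2, a common retinoid target, on 1 resistant and 2 sensitive arrays (log2 difference -0.66, adjusted p = 0.513). The other TGM2 probe set, detected on no array, had a log2 difference of 0.47 (adjusted p = 0.532, limma).

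**Figure D4:**
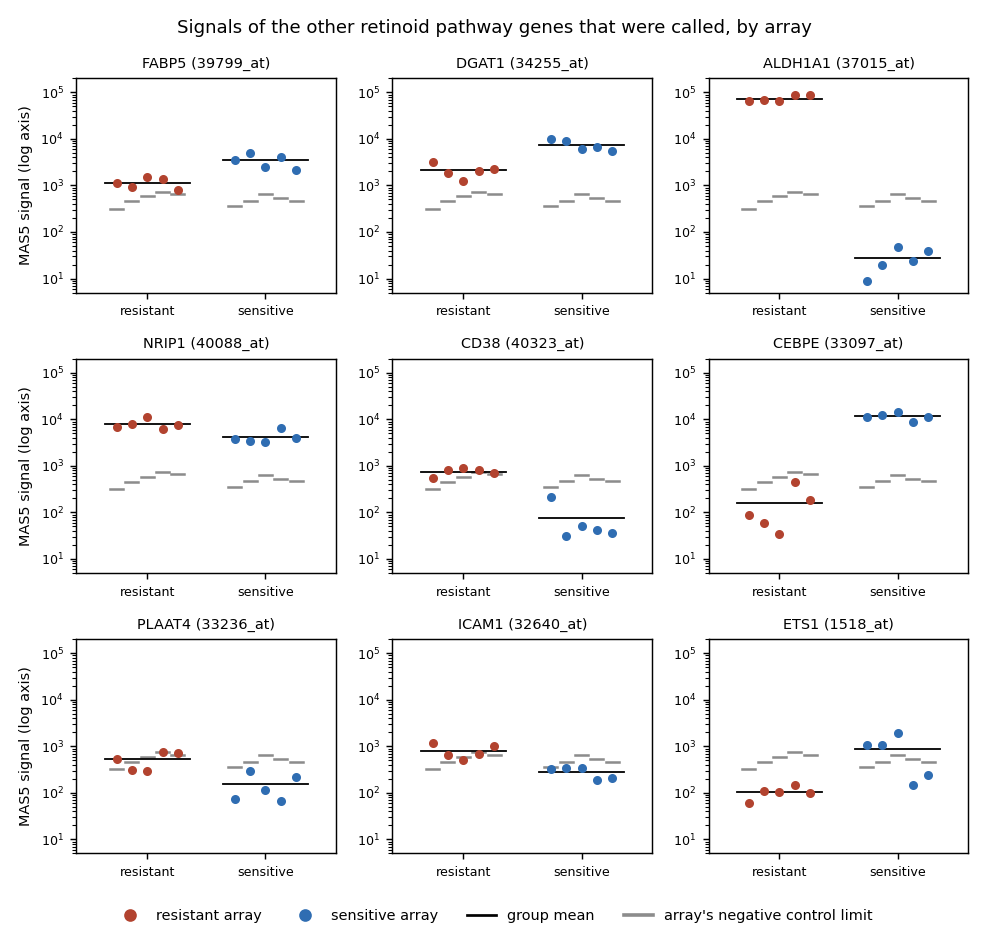
Signal of the 9 called genes of the wider retinoid list on 5 resistant (left) and 5 sensitive (right) arrays. Points are arrays in order of replicate number, black lines are group means, grey dashes are each array's negative control limit, and the vertical axis is logarithmic. The groups overlap for NRIP1 and ETS1 and are apart for the other 7 genes.

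The probe sets whose log2 signals ran most like those of the called members over the 10 arrays were found among 5425 named probe sets detected on all arrays of at least 1 group. The arrays form 2 groups, so these values of Pearson's r mainly reflect the gap between the lines and are descriptions. The brighter RXRA probe set was most like CCNA2, the cyclin of S phase (r = 0.979), EZR, the membrane-to-actin linker ezrin (r = 0.974), and STAU2, an RNA-binding protein (r = 0.973). The other RXRA probe set was most like TP53BP2, KLHL21 and the G protein subunit gene GNB1 (r = 0.961, 0.961 and 0.956). DHRS3 was most like PDLIM1, a cytoskeletal adaptor (r = 0.989), and 2 probe sets of CTNNA1, alpha-catenin (r = 0.988 and 0.985). PDLIM1 was 3197 ± 527.2 in resistant and 201.8 ± 72.42 in sensitive arrays (SD, n = 5 each).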

How the data were processed

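Gene expression was measured on 10 one-colour Affymetrix arrays. The deposited values are linear signal intensities, made by the authors with MAS5, per the submitters' processing notes, whose version and settings are not stated there. The 2% trimmed mean was 2501.33 to 2501.51 on all arrays, so the deposited values were already scaled. All 10 columns were used, and 67 control probe sets were left out. Probe sets were named by the platform annotation (10943 with 1 symbol, 545 with several, which named no gene, 1070 with none), and 10934 names were updated through the GRCh38.p14 gene table. From the intensities, log2(signal + 114.8) was computed, the pseudocount being the 20th percentile of all signals, so differences of dim probe sets are understated. Groups came from the sample titles and were compared in limma 3.58.1 under R 4.3.3 (lmFit, then eBayes) without covariates and with Benjamini-Hochberg adjustment over 12558 probe sets. The number of arrays limits precision. The members and lists were chosen with earlier results of these data known.

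Named were all member probe sets, each called gene of the wider list and the 2 brightest uncalled genes of each role. An "at least" fold sets the bright group's mean log2 signal against, for each array of the other group, the higher of the limit and the signal itself, where no array of that group was above the limit. Alternatives were the pseudocount (5th or 40th percentile), median scaling, quantile normalization, a filter on dim probe sets, a trended robust eBayes, the replicate number as a block, the mean over a gene's probe sets, exact permutation and leaving out each array.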

Additional observations from a re-analysis of the deposited data

Results flagged for a closer look

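In 4 of 76 groups of 5 arrays, made up of the member probe sets and the named pathway genes, 1 array lay so far from the other 4 that its gap took more of the group's log2 range than Dixon's critical value of 0.71. Chance flags about 1 in 20 such groups. A RARB probe set read 351.9 on sensitive replicate 3 and 29.6 to 86.0 on the other sensitive arrays (ratio 0.719). The dimmer CRABP2 probe set read 87.9 on resistant replicate 1 and 153.1 to 175.4 on the other resistant arrays (ratio 0.777). CD38 read 216.1 on sensitive replicate 1 and 30.5 to 50.1 on the other sensitive arrays (ratio 0.846). All these signals lie below the negative control limit of their arrays. IRF1 read 2627 on resistant replicate 3 and 1287 to 1552 on the other resistant arrays (ratio 0.742). None of RARB, CRABP2 and IRF1 was called, and CD38 was called without sensitive replicate 1 as well.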

How the results depend on the processing

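The 3 called member probe sets, both of RXRA and the 1 of DHRS3, were called under all 17 alternative fits, and no other member was called under any. The log2 difference ranged from -2.49 to -2.10 and from -1.46 to -0.90 for RXRA and from 1.97 to 3.34 for DHRS3. The count over all probe sets was 931, and 691 to 1169 over the alternatives, and its split was 555 higher and 376 lower, against 438 and 423 under median scaling. Of the 48 wider pathway genes 9 were called, and 6 to 10 over the alternatives, with calls of NRIP1, PLAAT4 and ETS1 lost under 11, 7 and 10 of the 17. Median scaling moved the median difference of all probe sets to -0.071, against 0.029 with the trimmed mean. Whether the replicate numbers pair the samples is not settled. Same-numbered arrays correlated at 0.036 to 0.229 in their deviations, and only 1 of 5 pairs exceeded 0.1. For resistant replicates 2, 3 and 4 the sensitive array with the highest correlation was the same-numbered one, and for replicates 1 and 5 it was not. With the replicate block 794 probe sets, 3 member probe sets and 6 wider genes were called. Most RAR, CRABP2 and RARRES2 signals lie near or below the negative control limit, which bounds what could be detected for them.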
